A study of Mus musculus with 5 samples.

Results

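Kinesins of the *Kif1*, *Kif3*, *Kif5*, and *Kif21* families were followed in sorted sympathetic neurons of mouse embryos. The 10 genes were taken by symbol, and no threshold on their values was applied (*Kif1a*, *Kif1b*, *Kif3a*, *Kif3b*, *Kif3c*, *Kif5a*, *Kif5b*, *Kif5c*, *Kif21a*, and *Kif21b*). All 10 were found among the 20224 genes of the count table. Of these, 9 had enough counts to be tested, as did 15032 genes in all, and *Kif21b* did not.

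The libraries were bulk RNA-seq of 100 neurons each, taken from E14.5 sympathetic chains, numbered 5 and 6 for the 2 controls and 3, 4, and 5 for the 3 *Hif1aCKO* samples. The *Hif1aCKO* embryos were *Hif1a* loxP/loxP with *Isl1-Cre*, and the sorted control embryos were *Hif1a* loxP/+ with *Isl1-Cre*. Both carried the *tdTomatoAi14* reporter and the *Prph-eGFP* transgene, and cells positive for both colors were sorted. Per the paper, the embryos sorted for RNA-seq came from non-diabetic pregnancies. *Isl1-Cre* is a knock-in at *Isl1* that acts in several cell types besides sympathetic neurons, so both groups carried 1 altered *Isl1* allele. The series text also describes controls without *Isl1-Cre*, which is not the genotype given for the sorted reporter embryos.

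Kinesins are motors that walk along microtubules, mostly toward the plus end, and in an axon this carries cargo from the cell body toward the growth cone and the terminal. Kinesin-1 is built from *Kif5* heavy chains and light chains and carries vesicles, mitochondria, and slowly moving cytoskeletal proteins. Kinesin-3 motors (*Kif1a*, *Kif1b*) carry synaptic vesicle precursors and dense core vesicles, and heterotrimeric kinesin-2 pairs *Kif3a* with *Kif3b* or *Kif3c*. *Kif21a* and *Kif21b* belong to kinesin-4 and also restrain microtubule growth. Sympathetic neurons have long axons and store noradrenaline in vesicles that must reach the terminals. HIF-1, of which *Hif1a* encodes the oxygen-regulated subunit, binds DNA at a core of ACGTG or GCGTG.

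*Kif5a*, *Kif5c*, *Kif1b*, and *Kif3c* had lower counts in every *Hif1aCKO* library than in either control library. RefSeq promoters were available for 3 of these genes, and the 250 bases before the annotated start (GRCm38.p6, read 5′ to 3′ on the strand of the gene) are shown so that the letters in front of these genes can be seen. Capitals mark the HIF-1 core, ACGTG or GCGTG, on either strand (CACGT or CACGC on the opposite one).
*Kif1b*, chr4:149307734-149307983, minus strand: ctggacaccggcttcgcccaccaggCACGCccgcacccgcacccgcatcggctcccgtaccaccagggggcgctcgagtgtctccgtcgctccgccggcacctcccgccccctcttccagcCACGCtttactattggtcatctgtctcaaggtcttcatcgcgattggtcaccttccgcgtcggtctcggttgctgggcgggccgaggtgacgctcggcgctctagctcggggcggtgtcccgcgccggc
*Kif3c*, chr12:3364882-3365131, plus strand: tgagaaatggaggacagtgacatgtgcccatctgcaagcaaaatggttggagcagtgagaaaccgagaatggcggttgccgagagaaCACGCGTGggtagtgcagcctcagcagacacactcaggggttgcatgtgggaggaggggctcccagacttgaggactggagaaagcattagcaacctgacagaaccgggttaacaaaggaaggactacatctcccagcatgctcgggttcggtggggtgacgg
*Kif5c*, chr2:49619036-49619285, plus strand: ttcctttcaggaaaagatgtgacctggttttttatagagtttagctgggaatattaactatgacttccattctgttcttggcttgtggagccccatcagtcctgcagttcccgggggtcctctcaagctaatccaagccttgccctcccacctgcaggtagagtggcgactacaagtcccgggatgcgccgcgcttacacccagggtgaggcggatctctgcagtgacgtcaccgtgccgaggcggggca

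The *Kif1b* window held the core at 225 and 129 bases before the start. In *Kif3c*, matches at 163 and 160 bases overlapped, 1 on each strand, and the *Kif5c* window held none. Among the 7 kinesin genes with a promoter entry, 4 held the core in at least 1 entry (*Kif1a*, *Kif1b*, *Kif3c*, and *Kif21a*), and it was not in the windows of *Kif3a* or *Kif3b*. The second *Kif1a* entry held it within CACGTG, which is also an E-box, the site of other factors. Counted by entry, it was in 6 of 9 kinesin promoters (66.7%), of which the pair for *Kif1b* overlap, and in 38.6% of all 32851 promoters searched the same way. Binding was not measured, and a match is only a description of these letters. *Kif5a*, *Kif5b*, and *Kif21b* had no entry.

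The total count per library ranged from 8254211 to 9700887. Counts below were normalized to the mean effective library size with TMM factors between 0.974 and 1.03. Counts of *Hif1a* over all exons were 2086 and 1584 in the controls and 2747, 1757, and 2135 in *Hif1aCKO* replicates 3, 4, and 5. These ranges overlap, and a count over the whole gene does not check the loss of the floxed exon 2. All 12 sympathetic neuron markers were present, and their summed normalized counts were 98976 and 119155 in controls against 88658, 85167, and 86557 in *Hif1aCKO* libraries. *Hif1aCKO* replicate 3 stood apart by a sum of Schwann cell precursor markers of 1144 (4 of the 7 listed markers are in the table), whereas the other 4 libraries had 30.6 to 55.2. Most of that sum was *Fabp7*, at 993 in replicate 3 and 8.76 or less elsewhere, and the defining marker *Sox10* was at 8.58 in replicate 3 and at 0 to 0.973 elsewhere. *Prph*, whose promoter drives the sorted eGFP, overlapped between groups at 4483 and 5966 against 6541, 5927, and 4970.

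None of the 9 tested kinesins passed the test of *Hif1aCKO* against control (edgeR's quasi-likelihood test, Benjamini-Hochberg adjusted p-value under 0.05, log2 fold change above 0.3 or below -0.3, mean normalized count of at least 50). The background was the same, as 0% of the 15032 genes passed, with 1153 genes (7.67%) at an unadjusted p under 0.05. DESeq2 at the same thresholds called 60 of 15478 genes (0.388%) and no kinesin. The estimates were lower in *Hif1aCKO* neurons for 8 of the 9 kinesins, with *Kif5b* the exception, whereas 48.7% of all genes were lower. The median log2 fold change of the 9 was -0.25, against 0.01 for all genes tested. The groups did not overlap for 4 of the 9, lower in *Hif1aCKO* each time, a pattern found in 12.9% of all genes, and for 0 in the higher direction. These counts describe 9 genes of the same libraries, which are not independent of each other. In a bulk library, fewer cells of a type and less RNA per cell cannot be told apart.

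**Figure D1:**
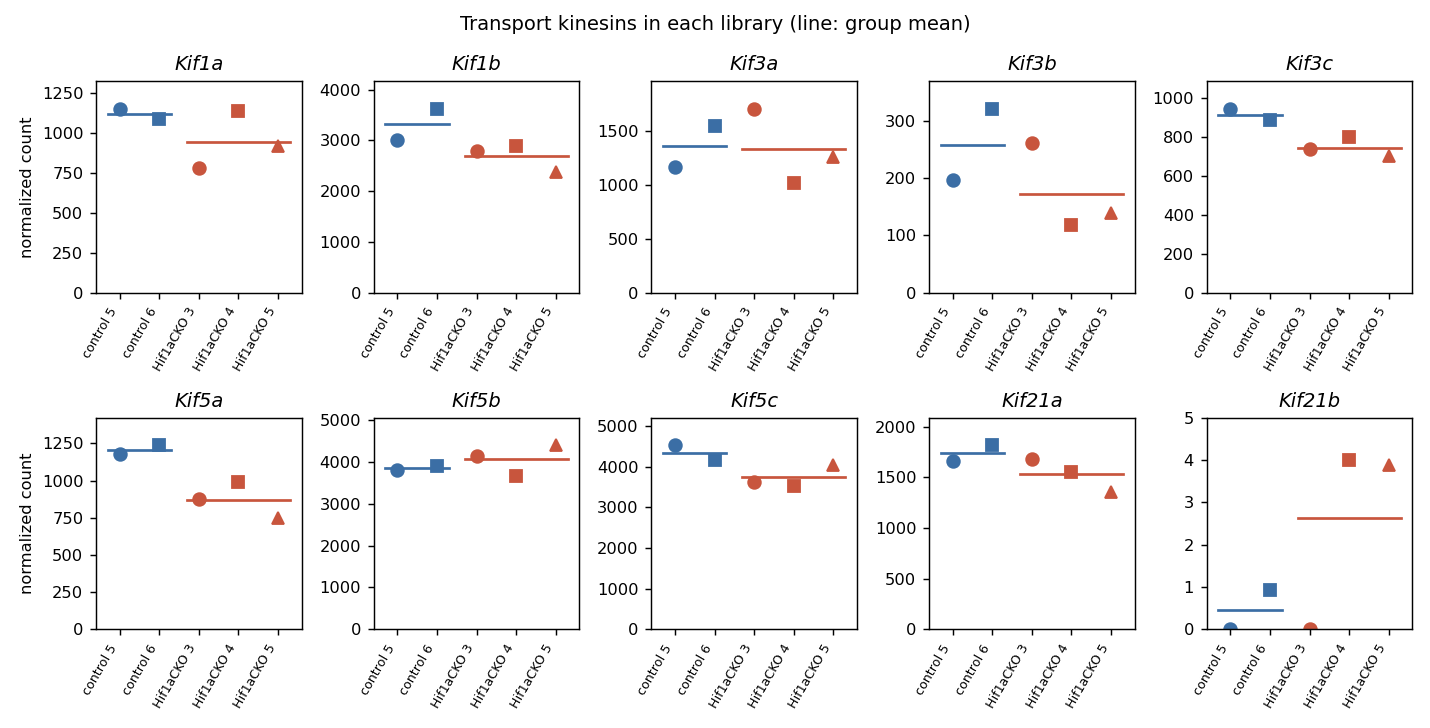
Normalized count (linear axes from 0, each gene with its own scale) of the 10 kinesins in each library, with controls in blue, *Hif1aCKO* in red, and lines at the group means. The *Hif1aCKO* points of *Kif1b*, *Kif3c*, *Kif5a*, and *Kif5c* all lie below both control points, and *Kif21b* stays at 4 counts or fewer.

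Of the kinesin-1 heavy chains, *Kif5a*, the neuron-specific member known for axonal disease when mutated, had normalized counts of 1176 and 1236 in the controls and 873, 988, and 745 in *Hif1aCKO* replicates 3, 4, and 5. The lowest control stood above the highest *Hif1aCKO* library. The log2 fold change was -0.47 with a standard error of 0.17 (95% interval -0.87 to -0.08), or 0.72 of the control level. Its unadjusted edgeR p of 0.0252 was the smallest among the kinesins, and 3.85% of all genes were lower at an unadjusted p under 0.05. The adjusted p was 0.621 (0.372 with DESeq2), so the difference did not pass. Left without any 1 library, the estimate ranged from -0.58 to -0.37.

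*Kif5c*, another heavy chain enriched in neurons, was at 4530 and 4169 in the controls and at 3631, 3531, and 4056 in the *Hif1aCKO* libraries. The ranges did not overlap, with a gap between 4056 and 4169 that is small beside the SD of 255 in the controls and 279 in *Hif1aCKO*, and with upper-quartile normalization they overlapped, which left 3 kinesins lower without overlap. *Kif5c* had a log2 fold change of -0.22 ± 0.12 (SE), with an adjusted p of 0.715 (edgeR). *Kif5b*, the heavy chain used by most cell types, was the only tested kinesin with a higher mean in *Hif1aCKO*. Its counts were 3798 and 3895 in the controls and 4143, 3655, and 4388 in *Hif1aCKO*, so that replicate 4 fell below both controls. Its log2 fold change was 0.08 ± 0.13 (SE), with a 95% interval from -0.21 to 0.37. Antisense genes share 2.28% (*AC113003.1*) and 1.78% (*Gm17036*) of its exonic bases.

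Because the heavy chains can stand in for each other, their ratios were compared within each library, on a scale of counts per kilobase of exon. *Kif5b* made up 37.2% and 39.1% of the *Kif5* sum in the controls and 45.0%, 41.9%, and 44.9% in *Hif1aCKO* replicates 3, 4, and 5. *Kif5a* made up 13.2% and 14.2% in the controls against 10.8%, 12.9%, and 8.71%. *Kif5c* held 49.6% and 46.8% in the controls and 44.1%, 45.2%, and 46.4% in *Hif1aCKO*. None of the 3 shares overlapped between the groups, and they add to a whole, so they are not separate observations. Among single genes, 25.7% of all those tested did not overlap between the groups in either direction.

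The log2 ratio of *Kif5b* to *Kif5c* was -0.41 and -0.26 in the controls and 0.03, -0.11, and -0.05 in *Hif1aCKO*. The difference of 0.29 had a p of 0.1 (two-sided exact permutation test), the smallest that 2 libraries against 3 allow. The log2 ratio of *Kif5a* to *Kif5b* was 0.56 lower in *Hif1aCKO* (-1.48 ± 0.03 in controls, SD, n = 2, and -2.04 ± 0.34, SD, n = 3, exact permutation p = 0.2), again without overlap. That of *Kif5a* to *Kif5c* overlapped, with a difference of -0.26 (exact permutation p = 0.4). With adjustment over the 6 ratios computed within families, each of these had a p of 0.6.

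**Figure D2:**
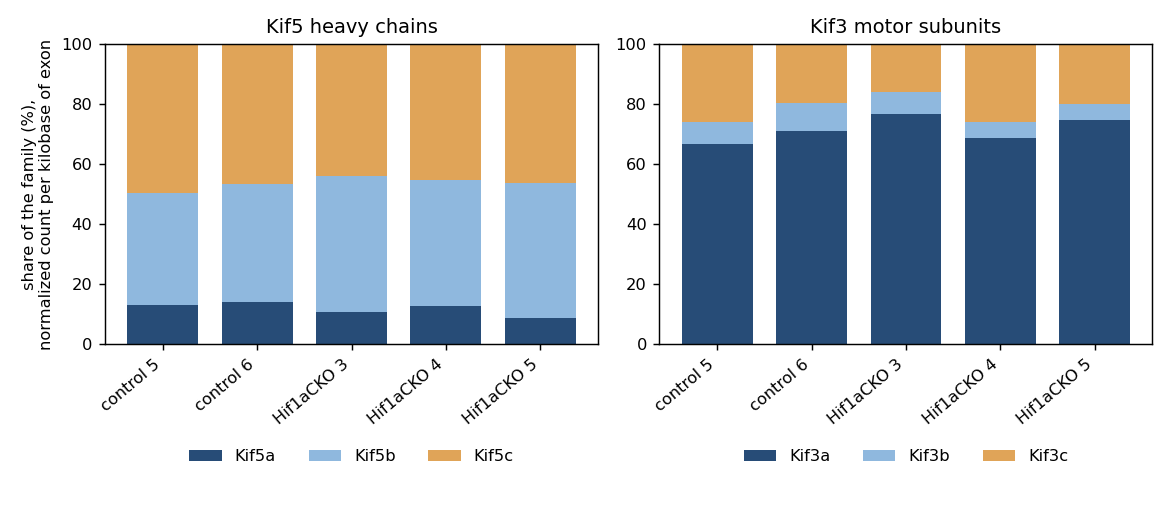
Share (%) of each heavy chain in the *Kif5* sum (left) and of each motor subunit in the *Kif3* sum (right), from normalized counts per kilobase of exon, with 1 bar per library. *Kif5b* takes 37.2% to 39.1% in the control bars and 41.9% to 45.0% in the *Hif1aCKO* bars, whereas *Kif3a* takes from 66.8% to 76.6% with overlap between groups.

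In the kinesin-3 pair, *Kif1b* was the more counted gene. Known for carrying synaptic vesicle precursors and, in one isoform, mitochondria, and for its place among sympathetic tumor genes, it had 3007 and 3625 normalized counts in the controls and 2799, 2888, and 2379 in *Hif1aCKO*. All 3 *Hif1aCKO* libraries were below both controls, and replicate 4 was close to control replicate 5. This gave a log2 fold change of -0.30 ± 0.15 (SE), with an adjusted p of 0.691 (edgeR). Without control replicate 6 it was -0.17. The counts do not separate its isoforms.

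*Kif1a*, the main motor for dense core vesicles, was at 1153 and 1086 in the controls and at 780, 1135, and 919 in *Hif1aCKO*. Replicate 4 lay between the controls and the other 2 lay below, so the groups overlapped. The log2 fold change was -0.25 ± 0.19 (SE), with an interval from -0.69 to 0.20, and it was -0.12 without *Hif1aCKO* replicate 3 and -0.40 without replicate 4. The log2 ratio of *Kif1a* to *Kif1b* differed by 0.04 between the groups (exact permutation p = 0.8, adjusted p = 0.8), less than its SD within either group, 0.25 and 0.28.

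Of the kinesin-2 subunits, *Kif3c*, which pairs with *Kif3a* and is mostly neuronal, had 944 and 883 counts in the controls and 734, 800, and 699 in *Hif1aCKO*. The groups did not overlap, and the log2 fold change was -0.30 ± 0.16 (SE), with an adjusted p of 0.707 (edgeR). Antisense genes cover part of its exons, *1110002L01Rik* 35.3% and *Gm48512* 7.94%, and the counting was not stated to use strand. Under the stated default settings of the counting tool, a read in bases shared by several annotated genes is given to none of them, so part of the *Kif3c* reads may be missing from its count.

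*Kif3b*, the widely expressed partner of *Kif3a*, was the most variable and the least counted of the tested kinesins. It had 196 and 321 counts in the controls and 262, 119, and 138 in *Hif1aCKO*, where replicate 3 fell between the controls. The SD of its log2 count over the 5 libraries was 0.60, while the other 8 tested kinesins were below the median of all genes tested, 0.39, with *Kif5b* lowest at 0.10. Its log2 fold change of -0.58 ± 0.40 (SE) was the lowest point estimate in the set but had an interval from -1.51 to 0.35. It moved with single libraries, to -0.19 without control replicate 6 and -0.37 without *Hif1aCKO* replicate 4, and to -0.89 without control replicate 5 and -1.01 without *Hif1aCKO* replicate 3, the library with the Schwann cell precursor transcripts.

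*Kif3a*, the subunit shared by both pairs, was at 1168 and 1553 in the controls and at 1711, 1021, and 1263 in *Hif1aCKO*. The groups overlapped fully, with the highest and the lowest library both in *Hif1aCKO*. The log2 fold change was -0.03 ± 0.24 (SE), and the sign of so small a value changed with upper-quartile normalization (0.00018) and when some single libraries were left out. The log2 ratio of *Kif3b* to *Kif3c* was lower by 0.33 in *Hif1aCKO*, within its spread (exact permutation p = 0.5, adjusted p = 0.6).

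Of the kinesin-4 genes, *Kif21a*, known from inherited eye muscle fibrosis caused by misguided cranial nerve axons, had 1659 and 1816 counts in the controls and 1684, 1556, and 1359 in *Hif1aCKO*. Replicate 3 lay between the controls, and the log2 fold change was -0.18 ± 0.15 (SE, edgeR adjusted p = 0.818), and -0.12 without control replicate 6 or -0.10 without *Hif1aCKO* replicate 5. Its paralogue *Kif21b* was nearly absent from the counts. It had 0 and 1 raw counts in the controls and 0, 4, and 4 in *Hif1aCKO*, or 9 in all libraries together (exact 95% Poisson limits 4.12 and 17.1, counting error only), against 8077 for *Kif21a*. Per kilobase of exon these totals were 0.739 and 1247. No fold change between the groups was drawn from 9 counts, and their log2 ratio (exact permutation p = 0.3) rests on the added 0.5 count.

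**Figure D3:**
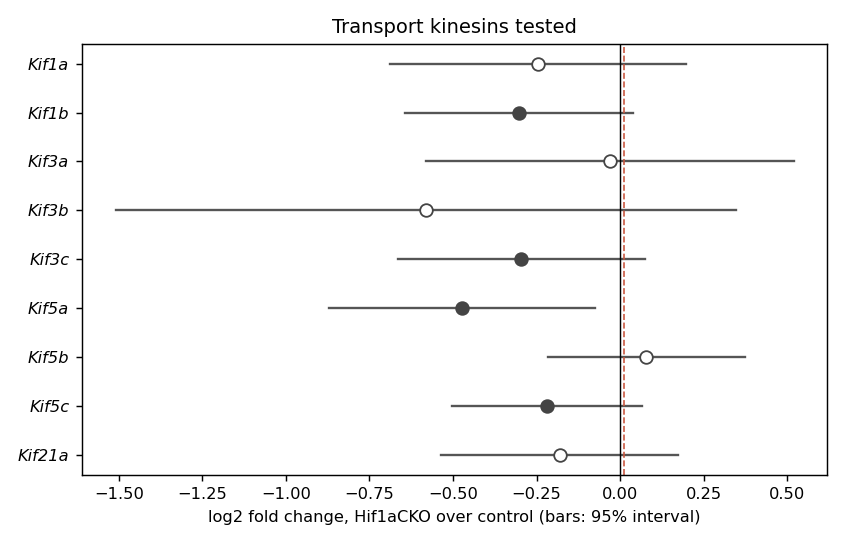
Log2 fold change (*Hif1aCKO* over control) of the 9 tested kinesins with 95% intervals from the edgeR fit. Filled points mark genes whose groups do not overlap, the red dashed line is the median of all genes (0.01), and only the interval of *Kif5a* (-0.87 to -0.08, unadjusted) leaves out 0.

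Levels of different genes can be set beside each other only per length, so normalized counts were divided by the kilobases of annotated exon. On this scale, *Kif5c* (558 ± 57.2, SD over 5 libraries) and *Kif5b* (498 ± 36.5) were highest, and *Kif3a* (375 ± 79.0) came next. *Kif21a* followed with 249 ± 26.3, then *Kif1b* (167 ± 25.6), *Kif5a* (144 ± 29.3), *Kif3c* (110 ± 13.7), and *Kif1a* (109 ± 17.2), with *Kif3b* at 36.7 ± 15.0 and *Kif21b* at 0.145. *Kif5c* was above *Kif5b* in 4 of 5 libraries, and *Kif3c* above *Kif1a* in 3 of 5, so neither pair has a firm order. *Kif3a* stood above *Kif21a*, *Kif21a* above *Kif1b*, and *Kif1a* above *Kif3b* without overlap of their ranges over libraries. *Kif5b* exceeded *Kif3a*, *Kif1b* exceeded *Kif5a*, and *Kif5a* exceeded *Kif3c* within all 5 libraries, although their ranges overlapped.

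The choice of length matters for a few of them. With the longest annotated transcript as the length, *Kif5b* (659) was above *Kif5c* (581), and *Kif1b* (287) was above *Kif21a* (251). With the bases shared with no other gene, *Kif3c* was at 193, above *Kif1b* (167) and *Kif5a* (144). Over all annotated exon, *Kif3b*, whose product and that of *Kif3c* compete for *Kif3a*, made up 5.10% to 9.35% of the *Kif3* sum. *Kif3c* made up 15.9% to 26.1%. With the bases shared with no other gene, the shares were 4.25% to 8.13% for *Kif3b* and 25.0% to 38.4% for *Kif3c*. Summed over all 10 genes, normalized counts were 17630 and 18585 in the controls and 16616, 15696, and 15950 in *Hif1aCKO*, with no overlap. The sum of the sympathetic neuron markers, given above, was also lower in every *Hif1aCKO* library, with 8 of 12 markers lower. Without overlap, 6 markers were lower and 1, *Hand2*, was higher (12.9% of all genes in each direction). The markers *Tubb3* and *Stmn2* are also in the list of tubulins and microtubule-associated proteins below. The part of this marker sum in the kinesin values was not tested.

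The kinesins work with partners on the same tracks, and 6 further gene lists were compared in the same fit. No gene in any of them passed the edgeR test. Light chains, adaptors, and regulators of kinesins were mixed, with 13 of 29 tested genes lower and a median log2 fold change of 0.08. Without overlap, 9 were lower and 6 higher (12.9% of all genes in each direction). The median turned to -0.03 without control replicate 6 and to -0.05 without *Hif1aCKO* replicate 4. The smallest p in this list was that of *Ppfia2* (liprin-alpha-2, a synaptic scaffold that binds *Kif1a*). It had 1553 and 1414 counts in the controls and 912, 896, and 777 in *Hif1aCKO*, a log2 fold change of -0.78 ± 0.16 (SE). The adjusted p was 0.567 with edgeR and 0.00491 with DESeq2, which called it. *Klc1*, the main neuronal kinesin light chain and the highest of the list per kilobase, was at 8201 and 8505 against 7494, 5808, and 5709, with a log2 fold change of -0.40 ± 0.14 (SE, edgeR adjusted p = 0.621). *Klc3*, a light chain at under 61 normalized counts, had the smallest p among the higher genes, with a log2 fold change of 1.12 ± 0.58 (SE, edgeR adjusted p = 0.698).

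The tubulins and microtubule-associated proteins that form the track were mostly lower, 21 of 26, with a median of -0.19, and 9 were lower and 3 higher without overlap (12.9% of all genes in each direction). *Tubb3*, the neuronal beta-tubulin, was at 19774 and 21205 in the controls and at 14996, 15168, and 16899 in *Hif1aCKO*. Its log2 fold change was -0.39 ± 0.09 (SE, edgeR adjusted p = 0.586, DESeq2 adjusted p = 0.128). *Tuba1a*, the main alpha-tubulin of growing axons and the highest of the list per kilobase, was also lower without overlap, with a log2 fold change of -0.21 ± 0.08 (SE). *Tubb4b*, a widely expressed beta-tubulin, went the other way, with 1159 and 1059 counts against 1525, 1496, and 1594 (log2 fold change 0.47 ± 0.15, SE, edgeR adjusted p = 0.599).

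Dynein and dynactin, the motor for the return direction, had 17 of 31 tested genes lower and a median of -0.05. Without overlap, 8 were lower and 2 higher (12.9% of all genes in each direction). The median was -0.12 without *Hif1aCKO* replicate 3, where 20 of the 31 were lower, -0.0069 without control replicate 6, -0.018 without *Hif1aCKO* replicate 4, and -0.0013 without *Hif1aCKO* replicate 5. *Dync1i2*, an intermediate chain, was at 6616 and 7501 against 6116, 5566, and 5114 (log2 fold change -0.33 ± 0.12, SE, edgeR adjusted p = 0.621). *Dynlrb1*, a light chain and the highest of the list per kilobase, had a log2 fold change of 0.01, with an interval from -0.27 to 0.28. *Nde1*, a dynein regulator used in dividing progenitors, was higher without overlap, at 667 and 440 against 1019, 886, and 952 (log2 fold change 0.78 ± 0.21, SE, edgeR adjusted p = 0.598).

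The enzymes that modify tubulin had 10 of 15 genes lower and a median of -0.20 (0.0037 without control replicate 6 and -0.36 without control replicate 5). Without overlap, 4 were lower and 1 higher (12.9% of all genes in each direction). *Vash2*, which removes the terminal tyrosine of alpha-tubulin, had a log2 fold change of -0.41 ± 0.19 (SE), while its partner *Svbp*, the highest of the list per kilobase, was at 0.03 ± 0.16 (SE). *Agbl5*, a deglutamylase, had the smallest p among the higher genes, with 0.38 ± 0.24 (SE). None of the 15 had an unadjusted p under 0.05.

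All 13 mitotic kinesins had a higher mean in *Hif1aCKO*, with a median of 0.62 (0.47 to 0.72 with 1 library left out), and 8 were higher without overlap, a pattern seen in 12.9% of all genes. *Cenpe*, a kinetochore motor, was at 1056 and 1018 in the controls and at 1693, 2116, and 1754 in *Hif1aCKO*. Its log2 fold change was 0.84 ± 0.16 (SE, adjusted p = 0.567 with edgeR and 0.00139 with DESeq2), and DESeq2 called 3 of the 13 genes. The other two, named for that call after their values were seen, were *Kif23* (log2 fold change 1.04 ± 0.22, SE, DESeq2 adjusted p = 0.00184) and *Kif20b* (0.78 ± 0.20, SE, DESeq2 adjusted p = 0.0407), motors of cytokinesis. The paper lists *Cenpe* and *Kif23* as upregulated in these libraries. It also reports *Kif23* as increased by qRT-PCR in dissected sympathetic chains. *Kif20a*, a motor of cell division and the highest of the list per kilobase, had 2454 and 2327 counts against 2606, 3395, and 2955, a log2 fold change of 0.32 ± 0.15 (SE). Without *Hif1aCKO* replicate 3, none of the 13 was lower and the median was 0.63.

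The other kinesins that are neither mitotic nor in the set of 10 had a median of 0.42, with 10 of 12 tested genes higher, and 5 were higher and 0 lower without overlap (12.9% of all genes in each direction). The median was 0.66 without control replicate 5. *Kif13a*, an endosome motor, was at 125 and 94.6 against 142, 253, and 198 (log2 fold change 0.85 ± 0.35, SE, edgeR adjusted p = 0.637). *Kif2a*, a microtubule depolymerase that trims axon branches and the highest of this list per kilobase, was at -0.28 ± 0.21 (SE) with overlap. Of these 3 kinesin lists, only the transport kinesins had a median below 0, and the difference between the lists was not tested.

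**Figure D4:**
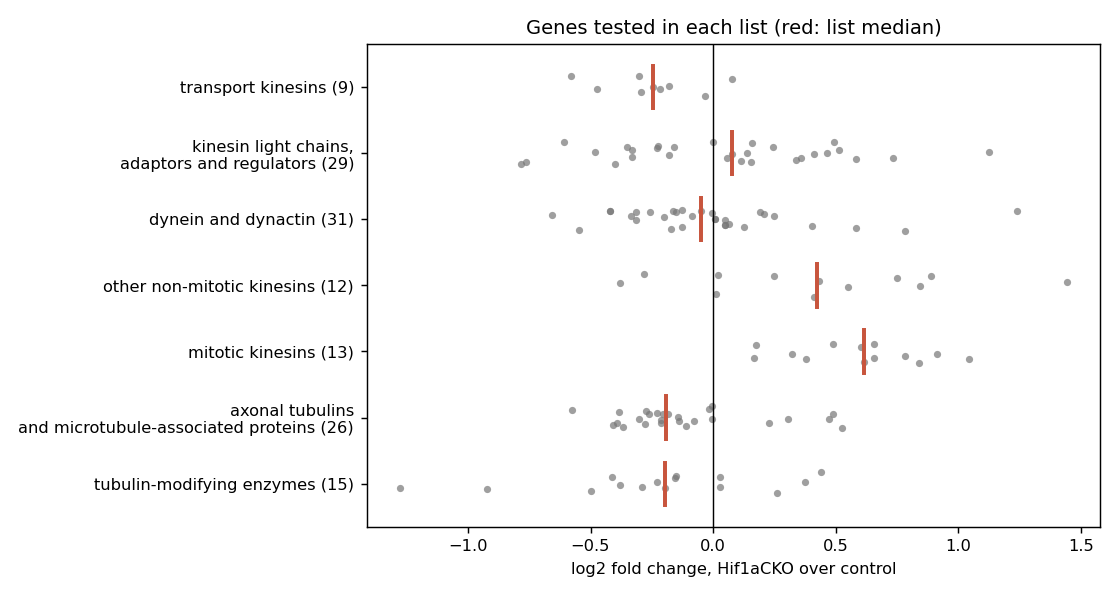
Log2 fold change (*Hif1aCKO* over control) of each tested gene (gray) in the transport kinesins and the 6 related lists, with the number tested in brackets and the list median in red. The medians are -0.25 for the transport kinesins, 0.62 for the mitotic kinesins, and -0.19 for the tubulins and microtubule-associated proteins.

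Without *Hif1aCKO* replicate 3, the transport kinesins were again lower in 8 of 9 genes, with a median of -0.25. Lower values without overlap were then found in 6 of 9, in a setting of 2 libraries against 2 where 22.3% of all genes tested showed them. It was 5 of 9 without replicate 4 (19.5% of all genes) and 4 of 9 without replicate 5 (18.7%). With only 1 control library left, it was 6 of 9 without control replicate 5 (25.5%) and 5 of 9 without control replicate 6 (24.3%). The sums of chromaffin cell and motor neuron markers were lower in every *Hif1aCKO* library than in the controls. Chromaffin cell markers summed to 6284 and 9536 in the controls and to 1423, 5545, and 1933 in *Hif1aCKO*, with *Chgb*, a granule protein that sympathetic neurons also make, as most of the sum (5514 and 8695 against 776, 4732, and 1106). *Slc18a1* overlapped, at 736 in both controls and 617, 795, and 816 in *Hif1aCKO*, and *Pnmt*, the adrenaline-forming enzyme, was at 51.0 or less in every library. Motor neuron markers (3 of 5 in the table) summed to 685 and 944 against 298, 361, and 537. Most of this sum was *Slc18a3*, at 611 and 839 against 285, 266, and 524, whereas *Chat* and *Slc5a7* overlapped between the groups. Sensory neuron markers overlapped, at 1124 and 1465 against 1353, 1419, and 1257. Most of this sum was *Ntrk3* and *Prrxl1*, whereas *Pou4f1*, *Runx3*, *Avil*, and *Ntrk2* were each at 19.0 or less in every library. Mesenchyme markers (5 of 8 in the table) summed to 3.71 to 26.3 over the 5 libraries (*Pdgfrb* and *Lum* at no more than 3 counts in any library). Endothelial markers (2 of 5 in the table) summed to 21.9 and 38.0 against 1.07, 12.0, and 19.5, lower without overlap. *Pecam1* and *Kdr*, which make up this sum, each overlapped between the groups. Of the 6 erythroid markers only *Alas2* was in the table. It was at 8.33 and 13.9 against 15.0, 31.0, and 25.3, higher without overlap, as were 12.9% of all genes. *Isl1*, which itself carries the Cre, had 12577 and 14019 counts against 8634, 7800, and 8722, a log2 fold change of -0.67 ± 0.10 (SE, adjusted p = 0.446 with edgeR and 0.000214 with DESeq2). The part of these markers in the kinesin values was not tested.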

How the data were processed

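Per the labels and the methods, the authors trimmed reads with cutadapt (1.18), removed ribosomal and vector sequence with Bowtie (1.2.2) and SortMeRNA, mapped to GRCm38 with STAR (2.7.0c), and counted reads per gene without multi-mapping reads. The deposited values are raw counts, used here as given. Names, positions, and exon lengths came from GENCODE M21 (GRCm38).

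*Hif1aCKO* and control were compared with edgeR (4.0.16) in R (4.3.3), using TMM, filterByExpr, the quasi-likelihood test, and Benjamini-Hochberg adjustment over 15032 genes. DESeq2 (1.42.0) and limma-voom (limma 3.58.1) were alternatives, beside other normalizations, filters, thresholds, and each library left out. Log2 ratios within families used raw counts plus 0.5, per kilobase of exon, and an exact permutation test (scipy 1.17.1). The edgeR, DESeq2, and limma-voom fits were run on simulated counts with known fold changes, where only the median estimate was checked.

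The members and lists were chosen with earlier results of these data known. Genes named were the kinesins, *Hif1a*, *Isl1*, and *Prph*, and from each transport list the genes called by edgeR, the gene with the smallest p in each direction, and the highest per kilobase. Libraries are separate biological samples per the methods.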

Additional observations from a re-analysis of the deposited data

How the results depend on the processing

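The number of genes called was 0 with edgeR in the main setting, 60 with DESeq2 (30 of them lower), and from 0 to 4 when 1 library was left out, with 4 without control replicate 5, where the spread comes from the *Hif1aCKO* libraries alone and the lone control is assumed to vary like them. No transport kinesin was called in any of the 14 alternatives. Transport kinesins lower without overlap numbered 4, and 3 or 4 under other normalizations and filters (11.6% to 13.2% of all genes). With 1 library left out they numbered 4 to 6, where 18.7% to 25.5% of all genes were lower without overlap. These 9 alternatives were chosen after seeing the data, as was the length of exon shared with no other gene. The log2 fold change of *Kif3a* (-0.25 to 0.18 with 1 library left out) turned positive with upper-quartile normalization (0.00018), without control replicate 6 (0.18), without *Hif1aCKO* replicate 4 (0.13), and without *Hif1aCKO* replicate 5 (0.0063). The ratio of *Kif3b* to *Kif3c* ranged from -0.73 to 0.077 with 1 library left out, the last without control replicate 6. That of *Kif1a* to *Kif1b* ranged from -0.14 to 0.22 and turned to -0.14 without control replicate 6, -0.048 without *Hif1aCKO* replicate 4, and -0.034 without *Hif1aCKO* replicate 5. The causes were not tested. The median of all genes moved by 0.04 with upper-quartile normalization. No paired analysis was made. The groups share only replicate number 5, and the labels do not say that a shared number marks a pair. With 2 libraries against 3, no exact test of a single ratio can go below 0.1, so small differences in these ratios could not be resolved. The edgeR test of single kinesins has no such limit, but its intervals were wide, as for *Kif3b* (-1.51 to 0.35), so small differences may have been missed.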
